A study of Mus musculus with 7 samples.

Results

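HDAC1 binding was examined at 6 genes at the end point of the Hedgehog (HH) pathway, namely the transcription factor genes Gli1, Gli2 and Gli3 and the genes of 3 proteins that control them, Sufu, Kif7 and Spop. A peak was assigned to a gene when it touched the gene body or the 20 kb beside it at either end. Of the 15347 peaks in the deposited list, 16 met this rule, and they lay at 5 of the 6 genes, with none at Spop. The list comes from 4 HDAC1 ChIP samples, with 3 samples of input chromatin, all prepared from pooled forelimb and hindlimb buds of wild-type Swiss Webster embryos at E11.5 (40 to 44 somites, 3 litters a sample). No mutant or treated embryos were used. ChIP-seq with an antibody against HDAC1 recovers DNA near this histone deacetylase in all limb bud cells at once, so a peak does not tell which cells of the bud carried it, and weak binding in many cells cannot be told apart from strong binding in few. A peak in the list has a start, an end and a place in the ranked order, but no height, fold enrichment or value per sample. Replicate error and the depth behind a peak are therefore unknown, no difference below was tested over samples, and binding under the peak threshold cannot be seen.

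GLI proteins are zinc finger factors that read out HH signaling. Without ligand, GLI3 and part of GLI2 are cut into transcriptional repressors, and with ligand the full-length proteins become activators. SUFU binds GLI proteins and holds them inactive, KIF7 is a kinesin that organizes the tip of the primary cilium where GLI proteins pass through, and SPOP is the adaptor that hands full-length GLI2 and GLI3 to a CUL3 ubiquitin ligase. Gli1 is itself switched on by HH signaling in most responding tissues, and in the limb bud GLI3 is the main source of repressor. HDAC1 removes acetyl groups from histone tails, and its peaks are known to gather at promoters of both active and repressible genes.

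All 3 Gli genes, Sufu and Kif7 had a peak over their own transcription start, and Spop had none. A promoter was taken as the interval that begins 2 kb before a protein-coding start of the GENCODE annotation and ends 1 kb after it. By this definition 5 of 6 genes had a promoter peak, against 43.9% of the 21938 protein-coding genes (9630 genes). With any peak in the gene or within 20 kb the count was again 5 of 6, against 59.3% of all protein-coding genes, and in the gene body alone 5 of 6 against 45.1%. The share with a promoter peak was larger among genes with many CpG around the start (ratio explained below). It was 60.0% at a ratio of 0.6 to 0.8 and 83.2% at 0.8 to 1.0. The 6 genes had ratios of 0.649 to 0.959. The Gli genes were the ones with the longer and earlier-ranked promoter peaks. The peak over the Gli3 start was at position 284 of the list and 3050 bp long. That of Gli1 was at position 1935 (3000 bp), that of Gli2 at 3560 (1450 bp), that of Kif7 at 6693 (400 bp) and that of Sufu at 9700 (600 bp). With no error on a position in the list, it cannot be said which neighbours in this order truly differ. Among all genes with a promoter peak, 2.95% had one placed as early as that of Gli3, 19.7% as early as that of Gli1, 35.8% as early as that of Gli2, 61.5% as early as that of Kif7 and 79.3% as early as that of Sufu.

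A promoter peak among the first 3836 of the list was found at 3 of the 6 genes (Gli1, Gli2 and Gli3), and 16.8% of protein-coding genes had one. Among the first 7674 it was 4 of 6, with Kif7 added, against 29.9%. A promoter peak of 3000 bp or more was present at Gli1 and Gli3, that is at 2 of 6 genes, and at 0.693% of all protein-coding genes (152 genes). The cut equals the length of the Gli1 peak, so any higher cut would leave Gli1 out. The count therefore depends on where the cut was set and is a description only.

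**Figure D1:**
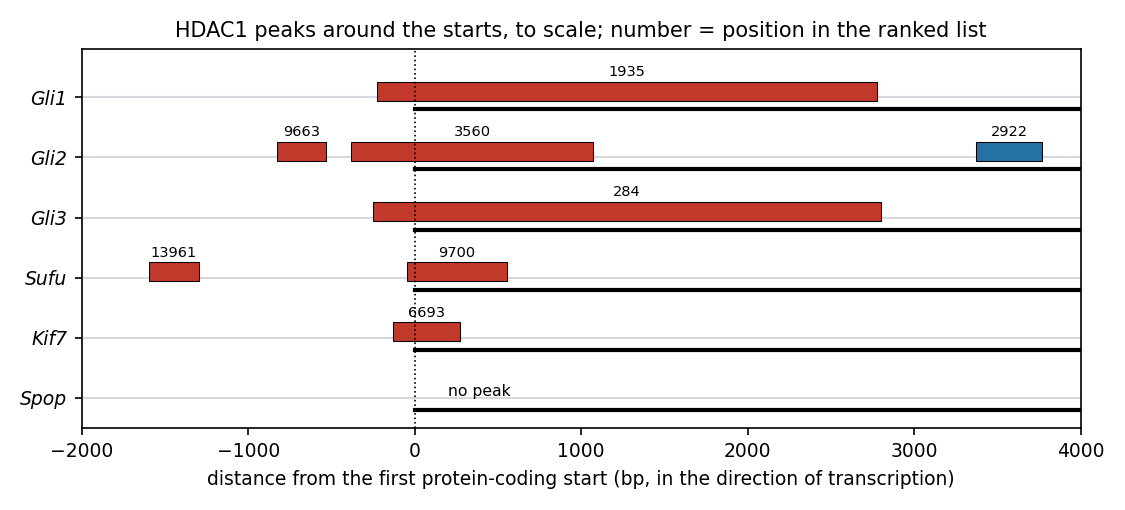
HDAC1 peaks drawn to scale around the first protein-coding start of each gene (dotted line), with transcription to the right, the gene as a black line and the position in the ranked list above each peak. Red bars are promoter peaks and the blue bar is an intronic peak of Gli2; the Gli1 and Gli3 peaks reach 2775 and 2799 bp past the start, and Spop has no bar.

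Over all 16 peaks the median length was 600 bp (150 to 3150 bp), against 450 bp in the whole list, and the median position was 5706 (249 to 14682), against 7674. They covered 16550 bp. By location, 7 peaks lay at a promoter of one of the 6 genes, 3 inside introns, 2 at the promoter of another gene within the 20 kb, and 4 elsewhere in the flanks. Together, 9 of the 16 peaks (56.2%) were at a protein-coding promoter, against 70.1% of all 15347 peaks. The number of peaks ran from 0 at Spop over 1 at Gli3, 2 at Kif7 and 3 at Gli1 to 5 at both Gli2 and Sufu, and did not follow the length of the gene, since Gli3 is the longest with 266792 bp. The plot of length against rank places all 16 among the others.

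**Figure D2:**
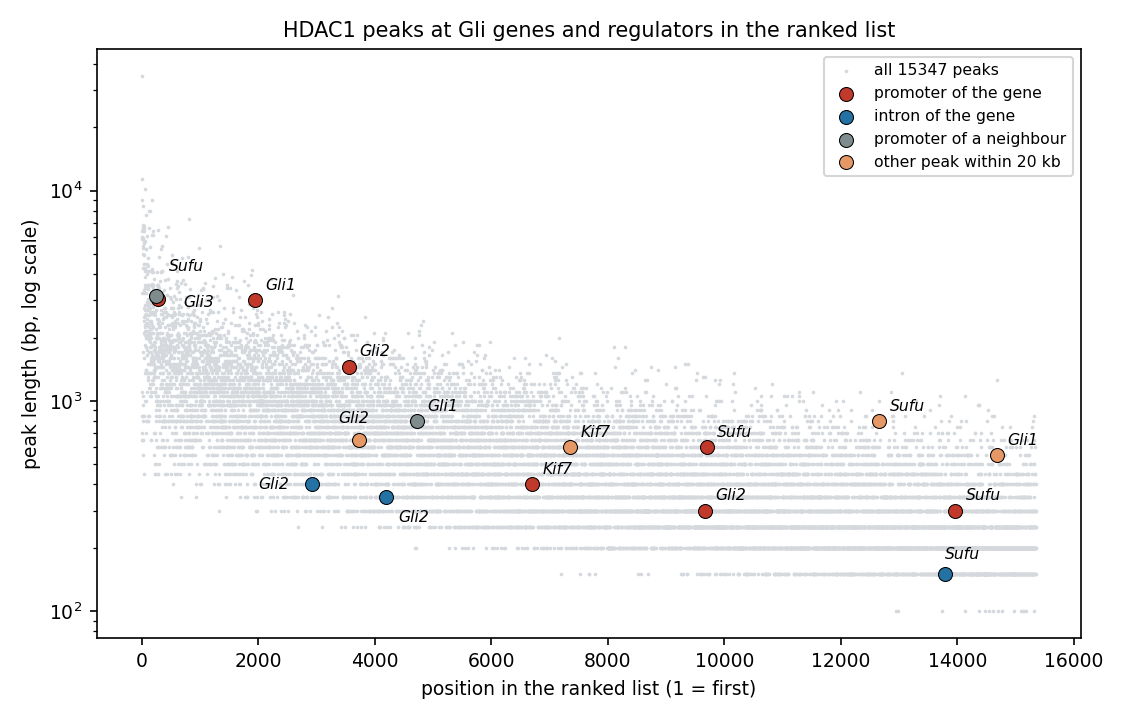
Length (bp, log scale) against position in the ranked list for all 15347 peaks (grey) and the 16 peaks at the 6 genes (colored by location and labelled with the gene whose window holds them). The Gli3 promoter peak (284) and the peak at the promoter of Trim8 near Sufu (249) are the earliest of the 16, and the 2 blue intronic Gli2 peaks lie in front of most peaks of their length.

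Gli1 (chromosome 10, 127329882 to 127341974, minus strand) is a gene of 12093 bp, and 1 broad peak took up 22.9% of it. The peak lay from 127339200 to 127342199. It began 225 bp upstream of the start and ran 2775 bp into the gene, over exons 1 and 2 of 13 and no coding sequence. An antisense transcript, Gm47200, crosses the same interval, and a peak has no strand. In length it stood in the top 0.977% of the list, yet it ranked last of the 6 peaks of exactly 3000 bp, whose median position was 1120. Compared with all promoter peaks, CpG dinucleotides were sparse in the Gli1 peak as a whole. Its observed to expected CpG ratio, the number of CpG over that expected from the C and G content, was 0.525. Of the 10759 promoter peaks, 9.49% had one as low. Their median length was 550 bp, and this comparison was not matched for length. Around the Gli1 start the ratio was 0.731, between those of Kif7 (0.649) and Gli2 (0.741).

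The Gli1 peak was also compared in its letters with other peaks of 2500 to 3500 bp. The GLI recognition sequence GACCACCCA (TGGGTGGTC on the other strand) had no exact match in any of the 16 peaks, and 0.645% of all 15347 peaks held one. With 1 mismatch allowed, the Gli1 promoter peak held 6 matches, or 2 per kb, while peaks of the whole list had 0.250 per kb. Among the 153 peaks of 2500 to 3500 bp the median was 0 matches, 50.3% had none, and only the Gli1 peak reached 6. This comparison by length was chosen after the matches had been counted. The matches lay 228, 386, 1265, 1923, 2388 and 2537 bp downstream of the start, the first pair in exons and the others in introns. The 4 intronic matches are shown with the flanking bases on the strand of Gli1 (mm10 coordinates, GRCm38.p6 sequence), the 9 bases of the match in capitals.
Gli1 match 1, chr10:127340694-127340723, minus strand: ctctggctcaGACCACCCTgcctgcccttg
Gli1 match 2, chr10:127340036-127340065, minus strand: ggcggcgactTGGGTGGGCcgagaaggcac
Gli1 match 3, chr10:127339571-127339600, minus strand: aatgtcgagcTGGGAGGTCttggatgcggg
Gli1 match 4, chr10:127339422-127339451, minus strand: agcatcccggGATCACCCAccgcgccggcc

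A match to these letters is not evidence of GLI binding there. Beyond the promoter, the Gli1 window held 2 further peaks, both past the 3' end. One of 550 bp (127326050 to 127326599, position 14682) covered parts of exons 6 to 8 of Arhgap9, a gene that runs toward Gli1, 3283 bp from the end of Gli1. The other (127311350 to 127312149, 800 bp, position 4719) lay over the start of Mars, the methionyl-tRNA synthetase gene. Genes were taken as of like length when their window, the gene with 20 kb at each end, was at least 0.8 times as long and at most longer by the inverse of that factor. Of 11834 genes with windows of like length, 16.2% had 3 or more peaks.

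Gli2 (chromosome 1, 118834132 to 119053619, minus strand) had 5 peaks, of which 3 were away from any promoter. Its start was covered by a peak of 1450 bp (119052550 to 119053999, position 3560), from 380 bp upstream to 1070 bp downstream, over exon 1 and the beginning of intron 1. A separate peak of 300 bp lay a little further upstream (119054150 to 119054449, position 9663), 531 bp from the start. Of 643 genes with windows of like length, 7.15% had 5 or more peaks. With peaks no more than 1000 bp apart merged, Gli2 had 4.

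The 2 peaks inside Gli2 were short but early in the list. The peak in intron 1 (119049850 to 119050249, 400 bp) was at position 2922, ahead of the promoter peak of the same gene, and 3370 bp from the start. Of the 909 peaks of 400 bp in the list, 4.18% were placed as early, and their median position was 9180. The peak in intron 2 (118902250 to 118902599, 350 bp, position 4188) was 151020 bp from the start. Of the 1009 peaks of 350 bp, 8.33% were placed as early. A further peak of 650 bp at position 3727 (118825400 to 118826049) lay 8083 bp past the 3' end of Gli2, in no annotated gene and 197454 bp from the nearest coding start, that of Tfcp2l1. Among the 4588 peaks of the list that overlap no promoter, 7.13%, 11.3% and 9.74% were placed as early as these, in the order given here. Both intronic peaks had few CpG, with ratios of 0.177 and 0.225, against a median of 0.370 in peaks away from promoters. The central 300 bases of both are shown on the strand of Gli2, because these are the intronic sequences with the earliest positions among the 6 genes. Capitals mark the 1 match to GACCACCCA with a mismatch, which is in the intron 1 peak.
Gli2 intron 1, chr1:119049900-119050199, minus strand: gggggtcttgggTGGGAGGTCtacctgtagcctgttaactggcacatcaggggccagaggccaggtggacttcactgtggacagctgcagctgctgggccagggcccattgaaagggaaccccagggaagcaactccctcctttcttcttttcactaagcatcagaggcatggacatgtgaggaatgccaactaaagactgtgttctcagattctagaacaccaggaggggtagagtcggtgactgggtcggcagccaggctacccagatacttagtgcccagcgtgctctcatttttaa
Gli2 intron 2, chr1:118902275-118902574, minus strand: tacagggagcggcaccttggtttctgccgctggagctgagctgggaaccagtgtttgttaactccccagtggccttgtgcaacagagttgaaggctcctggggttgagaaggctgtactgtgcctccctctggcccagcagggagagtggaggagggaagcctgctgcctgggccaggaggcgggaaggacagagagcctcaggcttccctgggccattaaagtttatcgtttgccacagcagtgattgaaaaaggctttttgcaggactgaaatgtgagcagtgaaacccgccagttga

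No other coding gene reached into the Gli2 window, and the next peaks were 354783 bp and 346831 bp beyond its edges. The 5 Gli2 peaks were thus the only ones in a stretch of 961 kb, which Tfcp2l1, Inhbb and Clasp1 lie in or reach into.

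Gli3 (chromosome 13, 15463235 to 15730026, plus strand) showed the opposite arrangement, with 1 broad peak at the start and nothing else. The peak (15463000 to 15466049, 3050 bp) covered both coding starts of Gli3, from 251 bp before the first start to 2799 bp after it, over exon 1 and part of intron 1. It also took in the start of Gm6556, a noncoding transcript that runs in the opposite direction. In length it was in the top 0.938% of the list. The remaining 263977 bp of the gene, or 98.9% of its length, had no peak. Outside the gene the nearest peaks were 99386 bp beyond the window on the upstream side and 262224 bp on the downstream side, so that it was the only peak in 668 kb. A single peak was common among long genes. Of 327 genes with windows of like length and a promoter peak, 38.5% had 1 peak and the median was 2. A promoter peak as early as that of Gli3 was present in 10 of these 327, Gli3 included. The plot of peak centres along the genes shows this contrast with Gli2.

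**Figure D3:**
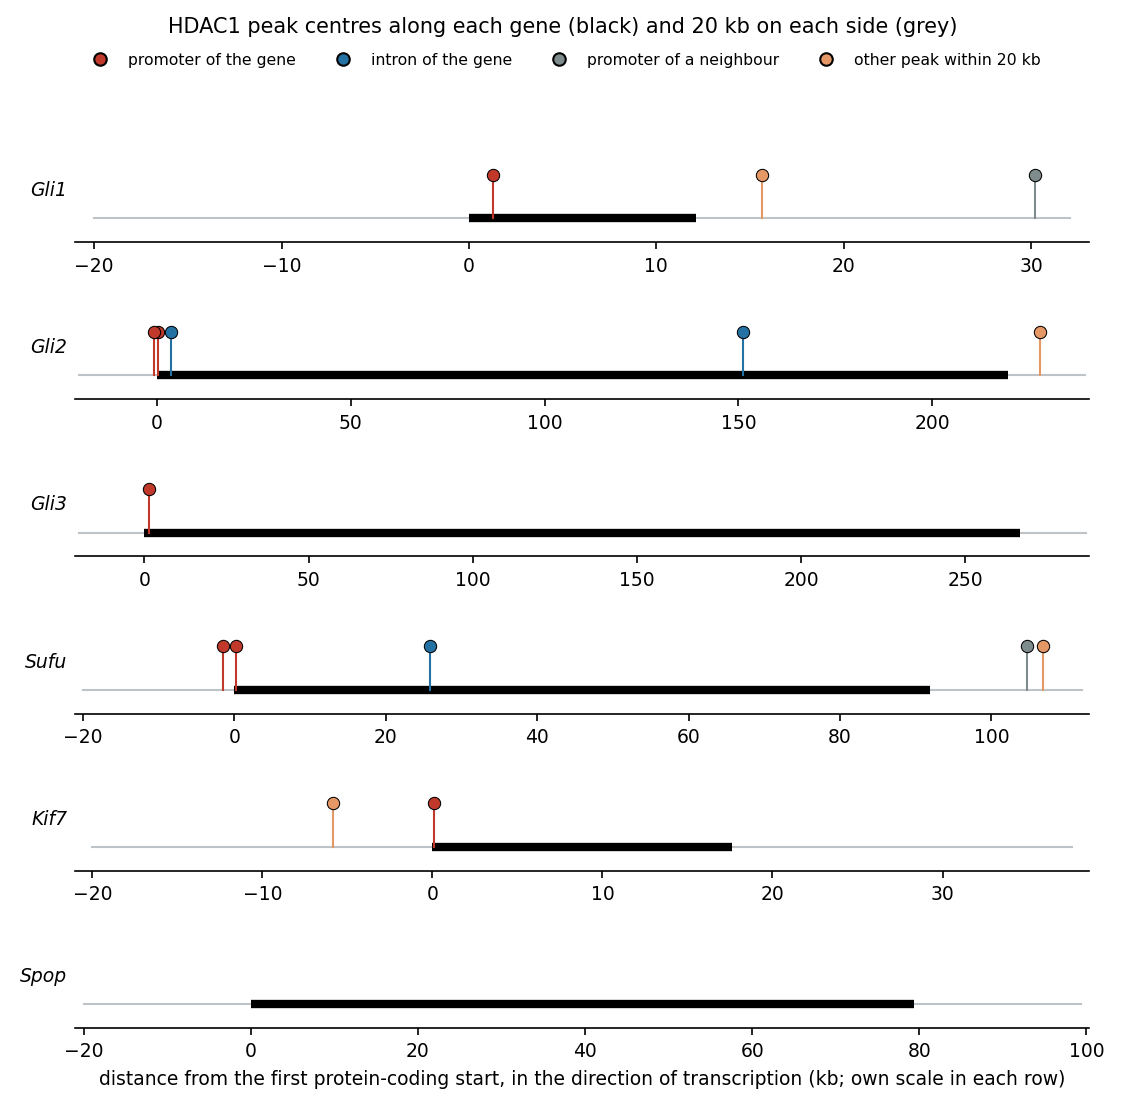
Centres of the 16 HDAC1 peaks (points) along each gene (black) and 20 kb beside it (grey), with distance in kb from the first protein-coding start in the direction of transcription and a scale of its own in each row. Gli2 has peaks at its start, in introns 1 and 2 and past its 3' end, Gli3 has 1 peak at its start, and the row of Spop is empty.

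Sufu (chromosome 19, 46396896 to 46488804, plus strand) had as many peaks as Gli2, but they were mostly late in the list or belonged to neighbours. The peak over its start (46396850 to 46397449, 600 bp, position 9700) held all 4 annotated coding starts, reached 46 bp upstream and 554 bp downstream, and covered 182 bp of coding sequence in exon 1. Sufu shares its upstream region with Actr1a, a dynactin subunit gene that starts 1148 bp away and is transcribed in the other direction. The second promoter peak (46395300 to 46395599, 300 bp, position 13961) lay in intron 1 of Actr1a, 139 bp from the start of that gene, and both peaks fall within the promoter intervals of both genes. An intronic peak of 150 bp, the shortest of the 16, was found in intron 2 of Sufu (46422700 to 46422849, position 13778), 25674 bp from the start. In the list, 99.9% of peaks were at least as long, and the median position of the 569 peaks of this length was 13636. It is shown whole, because it held 2 matches to GACCACCCA with 1 mismatch (capitals) in its 150 bases.
Sufu intron 2, chr19:46422700-46422849, plus strand: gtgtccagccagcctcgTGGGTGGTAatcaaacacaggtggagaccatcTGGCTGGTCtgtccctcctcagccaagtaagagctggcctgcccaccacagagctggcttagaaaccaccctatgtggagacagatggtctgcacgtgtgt

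The other 2 peaks in the Sufu window lay at Trim8, a gene of the tripartite motif family that starts 104806 bp from the Sufu start. The first (46500000 to 46503149, 3150 bp, position 249) covered the Trim8 start and was the longest and the earliest of all 16 peaks. The second (46503350 to 46504149, 800 bp, position 12659) was in intron 1 of Trim8. Without them and the peak in Actr1a, Sufu kept 2 peaks in its body. Of 2004 genes with windows of like length, 4.34% had 5 or more peaks.

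Kif7 (chromosome 7, 79698098 to 79715720, minus strand) had 1 short peak over its first start (79715450 to 79715849, 400 bp, position 6693), reaching 129 bp upstream and 271 bp downstream. The rest of the gene, 98.5% of its length, was free of peaks. The second peak in its window (79721250 to 79721849, 600 bp, position 7350) lay in Plin1, the gene of a lipid droplet protein of fat cells, over its last exon, exon 9, and 5530 bp from Kif7. Plin1 itself had no promoter peak. Of 9509 genes with windows of like length, 32.8% had 2 or more peaks.

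Spop (chromosome 11, 95414080 to 95493406, plus strand) had no peak in its 79327 bp or the 20 kb beside it. The nearest peak to its start was 28581 bp upstream, at the promoter of Slc35b1 (95384400 to 95385499, position 1625). At the other end a peak over the start of Nxph3 (95513600 to 95514749, 1150 bp, position 2665) lay 194 bp outside the window. The stretch of 128 kb between the 2 peaks had none. Of 2370 genes with windows of like length, 27.0% had no peak. At the 5 other genes, peaks just outside the windows, up to 50 kb from the gene, were found at Gli1 (3 peaks), Sufu (1) and Kif7 (2), the nearest of them 21030 bp from Kif7.

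The start of Spop, which had no peak, was not poor in CpG. In the 250 bases on each side of the first start, the CpG ratio was 0.959 at Spop, 0.955 at Gli3, 0.784 at Sufu, 0.741 at Gli2, 0.731 at Gli1 and 0.649 at Kif7. Genes with a ratio of 0.8 to 1.0 had a promoter peak in 83.2% of 5191 cases, so that Spop was among the 874 (16.8%) without one. With a ratio of 0.6 to 0.8 it was 60.0% of 4546 genes, and below 0.3 it was 5.06% of 6742. These ratios were compared after the peak at Spop was known to be missing. Whether CpG content bears on its absence was not tested. The bases just upstream of the RefSeq starts of Gli3, Kif7 and Spop (GRCm38.p6) are shown on the strand of each gene to set a promoter with a broad peak, one with a short peak and one without a peak side by side. Where the GENCODE start lay inside the RefSeq window the sequence stops before it, and the Gli3 bases lie between the 2 coding starts of that gene. Capitals mark the GC box, which is GGGCGG on one strand and reads CCGCCC on the other.
Gli3 promoter, chr13:15463473-15463722, plus strand: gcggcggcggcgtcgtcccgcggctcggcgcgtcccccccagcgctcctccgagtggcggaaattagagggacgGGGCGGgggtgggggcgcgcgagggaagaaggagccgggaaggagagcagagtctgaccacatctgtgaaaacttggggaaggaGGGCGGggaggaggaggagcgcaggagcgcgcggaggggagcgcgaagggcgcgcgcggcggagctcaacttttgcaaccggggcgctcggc
Kif7 promoter, chr7:79715721-79715957, minus strand: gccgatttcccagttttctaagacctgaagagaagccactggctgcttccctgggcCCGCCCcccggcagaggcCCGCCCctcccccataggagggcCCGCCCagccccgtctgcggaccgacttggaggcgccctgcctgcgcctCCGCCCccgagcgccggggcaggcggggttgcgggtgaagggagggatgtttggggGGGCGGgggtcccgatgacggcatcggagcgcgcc
Spop promoter, chr11:95413833-95414079, plus strand: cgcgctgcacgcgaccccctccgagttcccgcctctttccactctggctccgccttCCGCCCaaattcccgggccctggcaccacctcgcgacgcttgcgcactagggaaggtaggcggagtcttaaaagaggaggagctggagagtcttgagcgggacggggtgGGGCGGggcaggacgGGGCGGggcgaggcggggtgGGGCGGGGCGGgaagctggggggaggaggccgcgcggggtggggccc

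These bases held 2 GC boxes at Gli3, 5 at Kif7 and 5 at Spop, where 2 of them share a base. In the RefSeq table of promoters, from 250 bases before to 50 bases after a start, 35.9% of 32544 held one. The table gives promoters for Gli2, Gli3, Sufu, Kif7 and Spop, and Gli1 had no entry. None of the 5 held an exact GACCACCCA, against 0.246% of all. The CCAAT box, searched as CCAAT on both strands, was present at Sufu and absent from the other 4 windows, against 37.4% of all. The NRF1 motif GCATGCGC was in none of the 5 (2.73% of all), nor was the ETS motif CCGGAAG (8.91%), the E-box CACGTG (7.17%) or the TATA box TATAAA (13.6%).

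Within the 16 peaks, the GC box was found in 10 (61.4% of all peaks), CCAAT in 10 (37.6%), CACGTG in 5 (14.2%), CCGGAAG in 4 (16.3%), TATAAA in 2 (10.5%) and GCATGCGC in none (4.20%), on both strands and over whole peaks. The median length of these peaks was above that of the list, and a longer peak has more bases to search. In the central 300 bases, the same window for every peak, the GC box was in 5 (49.8% of all peaks), CCAAT in 3 (21.6%) and CACGTG in 3 (7.13%). GACCACCCA with at most 1 mismatch occurred in the central 300 bases of 3 of the 16 peaks, against 6.99% of all peaks. Over whole peaks it occurred in 5 of the 16, against 14.2%. The Gli1 promoter peak held 6 of the 11 matches. The others lay at Arhgap9, in the Gli2 promoter peak, in intron 1 of Gli2 and, as a pair, in intron 2 of Sufu, so that the 13550 bp outside the Gli1 promoter peak had 0.369 per kb.

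All 5 peaks over the starts lay mainly on the transcribed side. The part of the peak downstream of the first start was 92.5% at Gli1, 92.3% at Sufu, 91.8% at Gli3, 73.8% at Gli2 and 67.8% at Kif7. This is the usual form in the list. Of 6238 peaks that hold the start of a single coding gene, 83.2% had more than 50% of their length downstream, with quartiles of 58.7 and 88.0%. A share of 90% or more, as at 3 of the 5, was present in 21.2%. The GC content was within the range of other promoter peaks, from 57.3% at Gli3 to 71.0% at Kif7, against a median of 65.4%. It was on the low side at the Gli genes. Of the promoter peaks, 16.1% had a GC content as low as at Gli3, 21.6% as low as at Gli1 and 32.8% as low as at Gli2. The same share was 51.8% for Sufu and 80.5% for Kif7.

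The rest of the HH pathway, together with related zinc finger factors, was described with 6 gene lists of 52 genes. The lists were chosen by role, but with earlier results of these data known. Promoter peaks were found at 45 of them (86.5%) and any peak at 48 (92.3%), against 5 of 6 for both at the genes described here and 43.9% and 59.3% of all protein-coding genes. Of the 7 genes of receptors and co-receptors, 6 had a promoter peak, with the earliest at Gas1 (position 18), a co-receptor, at Ptch1 (46), the receptor of the ligand, and at Smo (2006), which passes the signal on, and with none at Hhip, which encodes a ligand-binding antagonist. These 7 windows held 16 peaks, as many as the 6 genes of GLI proteins and their regulators, and these were 975 bp long and at position 2688 in the median. Of the 11 kinase genes, 10 had a promoter peak, the earliest at Gsk3b (275), Prkar1a (763) and Csnk1a1 (1191), and Stk36 had none. Kinases of this list phosphorylate GLI proteins or regulate those that do.

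Among 9 genes of the ubiquitin system, 8 had a promoter peak. Spopl, the paralog of Spop, had one late in the list (position 14056), and Cul3, whose product forms a ligase with SPOP, had one at 6478. The earliest were at Skp1a (1802), Cul1 (3747) and Numb (3961), and Rbx1 had no peak in its window. Of 10 cilium genes, 8 had a promoter peak, with none at Ift172 and Gpr161 and the earliest at Rab23 (888), Dync2h1 (4518) and Ift88 (5413), and 3 of the 8 were among the first 7674 peaks. Of 8 genes of related zinc finger factors, 6 had one, the earliest at Zic2 (40), Glis3 (440) and Zic5 (550), while Zic1 and Zic4, which overlap on opposite strands, had no peak in their windows. All 7 co-factor genes had one, the earliest at Ski (301), a corepressor that binds GLI3, Smarcc1 (514) and Atn1 (1846). The bar plot gives these counts. Long and crowded windows hold more peaks by their size alone, and the lists were not matched for it. Nor were they matched for the CpG ratio around the start. Over all protein-coding genes, the share with a promoter peak was 5.06% at a ratio below 0.3 and 93.2% at 1.0 or more. Neighbouring genes of a list can also share a promoter peak, which then counts for each of them.

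**Figure D4:**
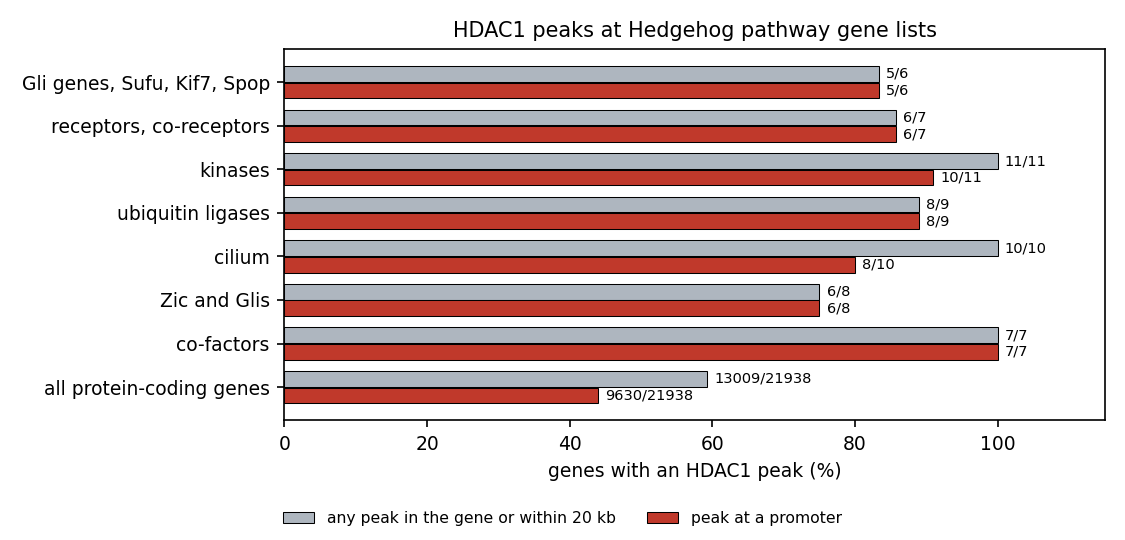
Share of genes (%) with any HDAC1 peak in the gene or within 20 kb (grey) and with a promoter peak (red). Bars are for the 6 genes described here, 6 other lists (HH pathway genes and related zinc finger factors) and all protein-coding genes, with the counts beside them. Promoter peaks range from 6 of 8 Zic and Glis genes to 7 of 7 co-factor genes in the lists, against 43.9% of all protein-coding genes.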

How the data were processed

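HDAC1 ChIP-seq was measured in 4 ChIP and 3 input samples. The submitters' processing notes name Bowtie2 2.2.5 and mm10, and the authors called peaks with CisGenome 2.1.0 at a false discovery rate below 0.05. They deposited 1 ranked list for all ChIP samples that gives only the coordinates of the peaks. It holds no counts, signal or value per sample, and which statistic set the order is not given in the sources used here. A legend of the study speaks of a fold change and a false discovery rate for each peak, and these are not used here. All starts are multiples of 50, and positions were read as 1-based with both ends included. If they count from 0, every position moves by 1 base. Regions were joined to GENCODE M21 (basic set) and GRCm38.p6, the same build. An overlap was at least 1 bp. Each peak was given the first fitting class of promoter of the gene, promoter of another coding gene, exon, intron and flank.

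The 6 genes and all lists were chosen with earlier results of these data known. Genes named were the 6, coding genes that start within 2 kb of their peaks, at most 3 genes per list with the earliest promoter peak, and those with no peak. Spopl, Cul3, Stk36, Ift172, Gpr161 and genes further from the peaks were added after their values were seen. No tests were run. Overlap and motif searches were checked on simulated data. Alternatives changed the flank, the part of the list, the overlap, merging, the promoter interval and the motif match. Python 3.11.15, numpy 2.4.6, pandas 2.3.3 and matplotlib 3.10.9 were used.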

Additional observations from a re-analysis of the deposited data

How the results depend on the processing

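The number of peaks at the 6 genes was 16, and it was 8 with no bases added to the gene body, 10 among the first 7674 peaks of the ranked list and 6 among the first 3836, which follows from fewer bases or fewer peaks being searched. With 5 kb or 50 kb added, 50% of each peak required in the window, or peaks merged, it stayed within 1.5 times. The share of genes with a peak was 83.3%, and 100% with 50 kb added, because peaks at Slc35b1 and Nxph3 then counted for Spop, while all protein-coding genes rose to 69.2%. Among the first 3836 peaks the share at the 6 genes was 66.7%, against 26.9% of all protein-coding genes. Promoter peaks were 7, and 4 among the first 7674 peaks. Peaks with the GLI motif were 0, and 5 with 1 mismatch allowed. At Kif7 the promoter peak was lost when only the first 3836 were kept, and at Sufu the 1 peak left among the first 7674 was that of Trim8. No paired analysis was possible because 1 list stands for all the samples, so that no sample could be left out either. Depth per peak is unknown.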

Other observations

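Each Gli gene has a gene of an inhibin beta subunit, the building block of activins, among its neighbours. This was looked at only after the surroundings of the Gli genes had been listed. Inhbe starts 12437 bp and Inhbc 28457 bp from the Gli1 start, and neither had a promoter peak. The peak nearest to the Inhbe start, 12212 bp away, was the one over the Gli1 start. The peak nearest to the Inhbc start, 10319 bp away, was at position 7423. It lay 88 bp from the start of R3hdm2. Inhbb, 368629 bp from the Gli2 start, had a peak over its start at position 6575, and Gli2 has one at 3560. Inhba, 548600 bp from the Gli3 start, had a promoter peak at position 14272, and Gli3 has one at 284. Positions carry no error, so a difference between the members of a pair cannot be judged. The CpG ratio around the start was 0.252 at Inhbe, 0.224 at Inhbc, 0.576 at Inhba and 0.795 at Inhbb, against 0.731 to 0.955 at the Gli genes. Whether HDAC1 binding at the members of a pair is related was not tested.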
